A study of Arabidopsis thaliana with 4 samples.

Results

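The comparison described here sets the single array of an Arabidopsis thaliana line labelled as a cesta enhancer trap against the single array of Columbia-0 wild type. These are 2 of the 4 arrays of the study. The other 2 come from a T-DNA line labelled as a cesta knockout and serve as a guide to noise. Every plant was of Col-0 background, was kept for 2 days at 4 °C, and was then grown upright on sucrose-containing agar for 14 days at 24 °C in long days (16 h light, 8 h dark). Total RNA of whole plants was labelled with biotin and hybridised to ATH1 arrays, with 1 colour and 1 array per RNA sample. The labels tag the enhancer-trap line as a gene knockout as well, name no promoter or insertion site, and do not say whether it is a single insertion line.

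CES (CESTA) encodes a DNA-binding factor of the basic helix-loop-helix family that acts in the response to brassinosteroids, steroid hormones that drive cell elongation in plants. It is known to promote transcription of a brassinosteroid biosynthesis gene. An enhancer trap is an insertion that reports, and can also alter, the activity of nearby genes. Brassinosteroids act together with auxin on growth and are linked to the cold response. Genes of those pathways are described by group below, but the groups were chosen with earlier results of these data known. A group holds only genes whose symbol, synonym or locus name matched a pattern. Members without a matching name can therefore be missing.

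Neither side had a replicate, so genes were called by the size of the change and no p-value is given. A probe set was called higher (rose) or lower (fell) where log2(signal + 1) differed at least 2-fold between the enhancer trap and wild type, and by more than a noise limit. That limit was the 99th percentile of the difference between the 2 knockout arrays among probe sets of similar signal. It ran from 0.56 to 3.28 on the log2 scale over 20 bins of signal and was highest among dim probe sets. Background was set from the 27 control probe sets for Bacillus genes, which have no target in plants and read at most 10.6 over the 4 arrays. Where the lower array read at or under this level the change is given only as a bound.

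Of 22746 probe sets compared, 502 (2.21%) were called, 209 of them higher (0.919%) and 293 lower (1.29%). The same rule applied to the 2 knockout arrays called 160 (0.703%), 37 higher in replicate 1 and 123 lower. The noise limit came from this same pair, so that total was largely fixed in advance and is not an independent background rate. Among called probe sets above background on both arrays the median difference was 2.33-fold for the 165 rises and 2.62-fold for the 202 falls. Of the 202 rises and 271 falls above background on at least 1 array, counting bounds, 146 and 160 were between 2- and 3-fold, and 5 and 9 reached 8-fold. The other 29 calls lay within background on both arrays. Of 13355 genes compared with 1 probe set each, 113 were higher (0.846%) and 150 lower (1.12%). Only 38 of these 263 called genes carry a symbol, 15 higher and 23 lower. The other 225 are named by locus, and no gene descriptions were available for them. No role is given for these genes, except for AT2G41480 and AT2G26690, which a list pattern matched.

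**Figure D1:**
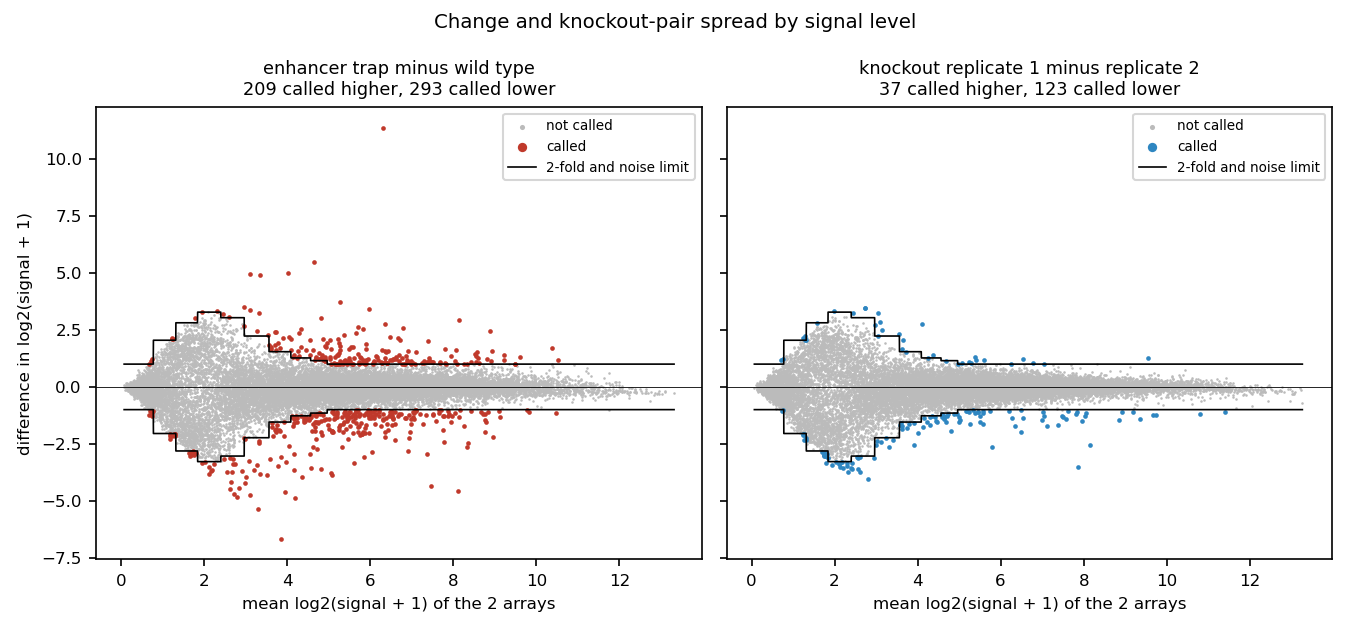
Difference in log2(signal + 1) against the mean log2(signal + 1) of the 2 arrays compared, for 22746 probe sets, with the enhancer trap minus wild type on the left and knockout replicate 1 minus replicate 2 on the right. Each point is a probe set, the stepped lines are the limits of the size rule, and coloured points are called: 502 on the left and 160 on the right. The noise limit was set from the knockout pair drawn on the right.

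The CES signal was read beside the labels of the line. Its signal was 4124 in the enhancer trap, against 0.533 in wild type, and it was 7.29 and 5.35 in the knockout arrays. CES thus ranked as probe set 45 by signal in the enhancer trap and lay within background on the other 3 arrays, a difference of at least 388-fold. The line thus had abundant CES transcript at this probe set, although it is also tagged as a gene knockout. Whether that transcript is intact was not tested. Because wild type also lay within background, CES does not check the label of the knockout arrays.

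The genes beside CES on chromosome 1 were read to see whether they moved with it. Of the 10 measured genes on each side 0 of 20 were called, and 12 were higher and 8 lower, with a median change of 0.15 and a range of -1.04 to 2.89 on the log2 scale, both ends of it from genes that read within background on 1 of these arrays. The nearest measured gene on one side, AT1G25320, read 55.3 in the enhancer trap and 79.4 in wild type, a change of -0.51. The nearest on the other side, AT1G25360, read 8.48 in the enhancer trap and 18.5 in wild type, with knockout signals of 12.2 and 12.9. AT1G25230 alone exceeded its noise limit of 0.56, with 642 in the enhancer trap and 376 in wild type, a change of 0.77 that is under 2-fold. The knockout arrays read 489 and 469 for it, between the other arrays. The rise of CES was therefore not shared by its measured neighbours at the size required for a call.

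**Figure D2:**
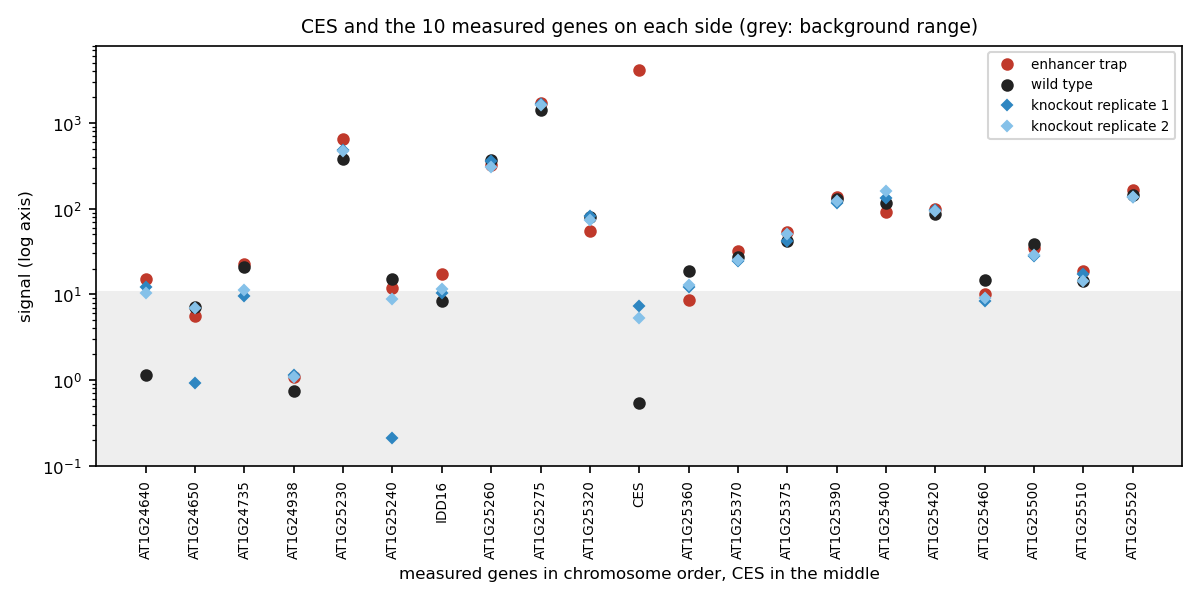
Signal on a log axis of CES and of the 10 measured genes on each side of it in chromosome order, with 1 point per array (enhancer trap, wild type and both knockout arrays) and grey for signals up to 10.6. CES stands apart at 4124 in the enhancer trap, while 0 of the 20 neighbours was called.

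Of 12 measured cold and dehydration genes 3 rose, 0 fell and 9 were not called, against 0.846% of all genes that rose. The list does not hold the drought-induced gene DI21, which fell, at 27.4 in the enhancer trap and 112.75 in wild type. The highest rise of any called gene above background on both arrays was that of COR15A, which encodes a small chloroplast protein that protects membranes during freezing. COR15A read 204 in the enhancer trap and 18.1 in wild type, with 25.6 and 18.8 in the knockout arrays, an 11.3-fold difference and a log2 change of 3.42. The enhancer trap was thus far above the other 3 arrays, which lay close together. Its paralog COR15B, the neighbouring locus on chromosome 2, read 139 in the enhancer trap and 47.9 in wild type, against 64.5 and 69.4 in the knockout arrays, a 2.90-fold difference. LTI30, a dehydrin gene induced by low temperature, read 911 in the enhancer trap and 396 in wild type, with 482 and 417 in the knockout arrays, a 2.30-fold difference.

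Among the other cold genes, the dehydrin gene COR47 read 1773 in the enhancer trap and 1196 in wild type, a change of 0.57 that was not called. The knockout arrays read 1488 and 1454 for COR47, also above wild type. COR27 was at 11.6 in the enhancer trap and 9.95 in wild type, close to background. All 8 members above background on at least 1 of these 2 arrays were higher in the enhancer trap, while the remaining 4 lay within background. The median change of the list was 0.43, against -0.04 over all genes. The 2 knockout arrays differed by a median of 0.08 over the same genes. The summed signal of the list was 6374 in the enhancer trap, 4731 in wild type, and 5694.5 and 5077.2 in the knockout arrays. Both knockout sums thus also lay above wild type. Whether that belongs to the wild-type array or to the knockout line was not tested.

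Of 12 measured auxin response genes 2 fell, 0 rose and 10 were not called, against 1.12% of all genes that fell. IAA29, an Aux/IAA repressor gene that is itself induced by auxin, read 9.24 in the enhancer trap and 66.0 in wild type, so that it was at least 6.22-fold lower. The knockout arrays read 100.1 and 93.0, above wild type. GH3.3, which encodes an enzyme that conjugates auxin to amino acids, read 27.8 in the enhancer trap and 86.9 in wild type, a 3.12-fold difference. For GH3.3 as well the knockout arrays, at 151 and 126, lay above wild type and farther from the enhancer trap.

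The other auxin genes changed too little for a call. WES1, another GH3 enzyme gene, read 128 in the enhancer trap and 223 in wild type (change -0.80), and IAA18, another Aux/IAA gene, read 135 in the enhancer trap and 218 in wild type (change -0.68). GH3.17 was higher in the enhancer trap, at 256 against 208 in wild type. Of the 12 members, 6 lay within background on both arrays, among them IAA20, IAA31 and GH3.1. The list had a median change of -0.38, or -0.74 over the 6 above background with IAA29 and GH3.9 at their bounds. The median over the 12 was -0.21 with quantile normalization and -0.13 with log2(signal + 16).

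Brassinosteroid and gibberellin genes had 0 calls among 5 and 4 measured. BIM1, a helix-loop-helix partner in brassinosteroid signalling, read 176 in the enhancer trap and 112 in wild type (change 0.64, under its limit of 0.73). BRH1, a RING-finger gene responsive to brassinosteroid, read 999 in the enhancer trap and 723 in wild type (change 0.46). BAT1, of brassinosteroid inactivation, read 120 in the enhancer trap and 135 in wild type. The gibberellin receptor genes GID1A, GID1B and GID1C had changes of 0.22, 0.70 and 0.27. All 4 gibberellin genes were higher in the enhancer trap, but none by as much as 2-fold. The most changed, GID1B, read 119 in the enhancer trap and 73.0 in wild type, against 57.3 and 73.5 in the knockout arrays.

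Of 43 wall genes matched by name 2 rose, 2 fell and 39 were not called, against 0.846% of all genes that rose and 1.12% that fell. Wall genes known by locus alone may be missing from this list, so the balance of rises and falls holds only for its members. Expansins loosen wall polymers during growth. EXLA1, an expansin-like gene, read 1221 in the enhancer trap and 491 in wild type, a 2.48-fold difference. Both knockout arrays also lay above wild type for EXLA1, at 862 and 962. EXPA7, an expansin gene of root hairs, read 113 in the enhancer trap and 44.7 in wild type, with 59.3 and 83.1 in the knockout arrays, a 2.52-fold difference.

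The wall genes that fell were also of the expansin families. EXPA8 read 145 in the enhancer trap and 421 in wild type, a 2.90-fold difference, with 302 and 240 in the knockout arrays. EXLB1 read 25.8 in the enhancer trap and 68.5 in wild type, a 2.65-fold difference, and the knockout arrays, at 68.6 and 74.8, lay close to wild type. Over the list 25 of 34 members above background were higher in the enhancer trap, and the list median was 0.32. The summed signal of the list was 7531 in the enhancer trap and 5824 in wild type, and it was 6106 and 7472 in the knockout arrays. The knockout arrays thus also differed from each other in this sum, with a median difference over the list of -0.21 (replicate 1 minus replicate 2).

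Of 51 measured UDP-glycosyltransferase genes, which attach sugars to small molecules, 2 rose and 0 fell. Over all genes 0.846% rose and 1.12% fell. GT72B1, a UDP-glucosyltransferase gene of phenolic compounds, read 542 in the enhancer trap and 252 in wild type, with 225 and 188 in the knockout arrays, a 2.15-fold difference. Its relative UGT72B3 read 58.7 in the enhancer trap and 21.3 in wild type, a 2.76-fold difference. The median change of the list was 0.23. Counts of 1 or 2 calls in a list of this size are a description only. DFR, which encodes dihydroflavonol reductase of anthocyanin synthesis, read 54.5 in the enhancer trap and 15.7 in wild type, a 3.48-fold difference, with 13.3 and 27.3 in the knockout arrays. It was the 1 call among 5 flavonoid genes, against 0.846% of all genes that rose. Of these 5, CHIL had the next highest change, at 88.7 in the enhancer trap and 46.4 in wild type.

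CCOAMT, a caffeoyl-CoA methyltransferase gene of the phenylpropanoid pathway, was lower, at 6.05 in the enhancer trap and 24.2 in wild type, at least 2.27-fold. Peroxidases, which oxidise phenolics in the wall, gave 1 call each way among 7, against 0.846% of all genes that rose and 1.12% that fell. Prx37 read 178 in the enhancer trap and 77.2 in wild type, a 2.30-fold difference, and AT2G41480, annotated as a peroxidase gene, read 21.1 in the enhancer trap and 56.2 in wild type, a 2.67-fold difference. For Prx37 the knockout arrays, at 76.7 and 72.5, were within a few units of wild type. The median of this list was -0.07 and turned to 0.14 with quantile normalization.

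Transport genes had 1 call among 15, a rise, against 0.846% of all genes that rose. AT2G26690, annotated as a member of the NRT1/PTR transporter family, read 841 in the enhancer trap and 278 in wild type, a 3.02-fold difference, with 212 and 251 in the knockout arrays. Among other raised genes with a symbol, P1R1 read 336 in the enhancer trap and 83.4 in wild type, and the knockout arrays read 83.1 and 83.6. The 3 arrays other than the enhancer trap were thus almost equal for P1R1, and the difference was 4.03-fold. AT5G57785, the next locus by name, read 1104 in the enhancer trap and 202 in wild type, a 5.46-fold difference.

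LPR1, a multicopper oxidase gene of the root response to low phosphate, read 39.7 in the enhancer trap and 15.2 in wild type, a 2.61-fold difference. SP1L2, a SPIRAL1-like gene of a family that acts on microtubules, read 152 in the enhancer trap and 75.4 in wild type. JAL23, a jacalin-related lectin gene, was at least 2.31-fold higher, at 24.6 in the enhancer trap and 6.92 in wild type. ATC, a relative of the floral repressor TFL1, read 29.8 in the enhancer trap and 2.22 in wild type, at least 2.80-fold, but its knockout signals of 9.10 and 20.7 spread widely between those values.

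**Figure D3:**
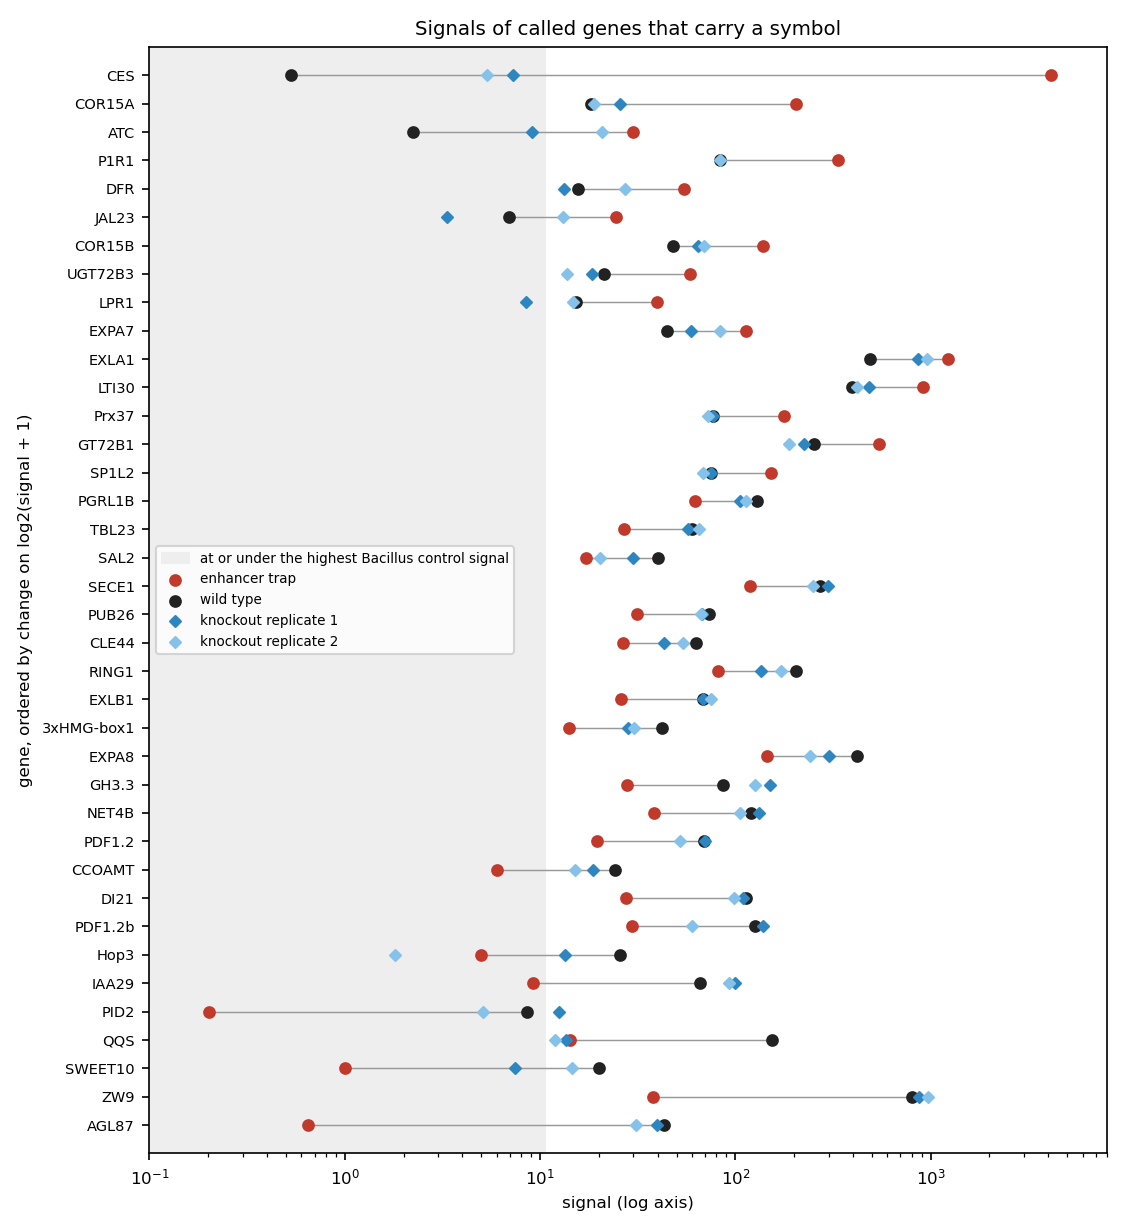
Signals on a log axis of the called genes that carry a symbol, ordered by the difference in log2(signal + 1) from CES (top) to AGL87 (bottom), with 1 point per array and a line joining the enhancer trap to wild type. For COR15A, P1R1, ZW9 and IAA29 the enhancer trap stands apart from all 3 other arrays, whereas for QQS only wild type stands apart.

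Of 6 measured jasmonate genes 2 fell, against 1.12% of all genes, and both were close copies of 1 defensin gene. PDF1.2, a plant defensin gene widely used as a marker of jasmonate and ethylene signalling, read 19.5 in the enhancer trap and 69.1 in wild type, with 69.7 and 51.9 in the knockout arrays, a 3.54-fold difference. Its close copy PDF1.2b read 29.7 in the enhancer trap and 126 in wild type, with 139 and 59.8 in the knockout arrays. The probe set of PDF1.2b is of a type that can bind related sequences, so the calls of these copies may share signal. The jasmonate list had a median of -1.10. The same 2 genes were the falls among 18 pathogenesis-related and defensin genes matched by name (list median -0.08). Neither list had a rise, but genes of these groups known by locus alone may be missing from both. In the jasmonate list 3 members, JMT, JRG21 and LCR67, lay within background.

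Other genes with a symbol fell singly and belong to no list with several calls. RING1, a ubiquitin ligase gene linked to cell death, read 81.5 in the enhancer trap and 204 in wild type, a 2.50-fold difference. PUB26, a U-box ubiquitin ligase gene, read 31.4 in the enhancer trap and 73.3 in wild type, a 2.34-fold difference. CLE44, which encodes a peptide signal of the vascular cambium, read 26.5 in the enhancer trap and 63.1 in wild type, a 2.38-fold difference. Hop3, a cochaperone gene, read 4.98 in the enhancer trap and 25.6 in wild type, but 13.4 and 1.80 in the knockout arrays, so the wild-type value lay outside a wide spread.

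Further genes with a symbol also fell singly. SECE1, a subunit gene of the plastid Sec translocase, read 119 in the enhancer trap and 272 in wild type, with 299 and 251 in the knockout arrays, a 2.28-fold difference. PGRL1B, of cyclic electron flow around photosystem I, read 62.3 in the enhancer trap and 130 in wild type. NET4B, of a plant family of actin-binding proteins, read 38.3 in the enhancer trap and 120 in wild type, with 132 and 105 in the knockout arrays, a 3.13-fold difference. The chromatin gene 3xHMG-box1 was 3.01-fold lower, DI21, a drought-induced gene, 4.12-fold, TBL23 2.23-fold and SAL2 2.32-fold.

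The deepest fall above background on both arrays among genes with a symbol was that of ZW9. It read 37.9 in the enhancer trap and 807 in wild type, with 869 and 972 in the knockout arrays, a 21.3-fold difference. The enhancer trap was low and the other 3 arrays were alike. AGL87, a MADS-box gene, read 0.651 in the enhancer trap and 43.4 in wild type, with 39.6 and 31.0 in the knockout arrays, at least 4.08-fold lower. It was the 1 call among 42 MADS-box genes, of which 30 lay within background, and 1 fall in 42 is near the 1.12% of all genes that fell.

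QQS, an orphan gene that affects leaf starch, followed another pattern. It read 14.2 in the enhancer trap and 154 in wild type, a 10.8-fold difference, but 13.6 and 11.97 in the knockout arrays. Wild type was the array that stood apart, so this fall does not separate the enhancer trap from the knockout line. SWEET10, a sugar transporter gene, was at least 1.89-fold lower, at 1.00 in the enhancer trap and 20.0 in wild type, with 7.44 and 14.6 in the knockout arrays. PID2, a PINOID-like kinase gene, was called lower within background on both arrays, and no fold is given for it.

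Many of the largest changes belonged to genes known by locus alone. Among the 12 largest rises after CES, COR15A and AT5G62360 were above background on both arrays. AT5G62360 read 772 in the enhancer trap and 101 in wild type, with 116 and 123 in the knockout arrays, a 7.64-fold difference. AT1G53080 read 90.6 in the enhancer trap and 1.89 in wild type (at least 8.53-fold), AT1G14930 read 54.4 in the enhancer trap and 0.840 in wild type (at least 5.12-fold), and AT1G58025 read 46.5 in the enhancer trap and 0.539 in wild type (at least 4.38-fold). These 3 lay within background on both knockout arrays too. AT1G51990 and AT1G07795 were higher by at least 2.52- and 2.35-fold, and AT5G39520, AT5G59330 and AT3G58060 by at least 1.38- to 1.55-fold, close to background. AT1G34330, annotated as a transcribed pseudogene, was within background on both arrays.

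The 12 largest falls by difference in log2(signal + 1) ended within background in the enhancer trap, except that of ZW9, so their order is not exact. AT4G20480 read 0.438 in the enhancer trap and 144.7 in wild type, with 132 and 134 in the knockout arrays, at least 13.6-fold lower. AT4G16870, annotated as a pseudogene, read 7.85 in the enhancer trap and 122 in wild type, with 114 and 109 in the knockout arrays, at least 11.5-fold lower. AT4G15660 read 2.15 in the enhancer trap and 75.5 in wild type, at least 7.11-fold lower. These 3 genes were well above background on every array except that of the enhancer trap.

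AT4G16880 was at least 5.84-fold lower, at 0.521 in the enhancer trap and 62.0 in wild type, and the pseudogene AT4G08110 at least 3.41-fold, at 0.308 in the enhancer trap and 36.3 in wild type. AT4G19510, AT1G52710, AT4G19520 and AT2G34840 were lower by at least 3.10-, 2.89-, 2.67- and 2.43-fold, and AT1G03020 by at least 1.46-fold. Of 923 genes annotated as pseudogenes 1 was called higher and 12 lower, 1.41% in all, against 1.99% of 12293 protein-coding genes, and 7 of those 12 lay within background on both arrays. By absolute signal the largest losses among called genes were those of AT2G25450 (233 in the enhancer trap, 1065 in wild type), ZW9, AT2G29670 (614 in the enhancer trap, 1313 in wild type) and AT1G23130 (609 in the enhancer trap, 1241 in wild type). The largest gains among called genes after CES were those of AT5G57785, EXLA1, AT5G62360 and AT5G22580 (963 in the enhancer trap, 364 in wild type).

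A further 217 called probe sets are not listed in the annotation used. The largest rise among them by difference in log2(signal + 1) read 142 in the enhancer trap and 9.61 in wild type, with 32.3 and 29.9 in the knockout arrays, and was at least 13.3-fold. The largest fall by difference in log2(signal + 1) read 2.37 in the enhancer trap and 97.9 in wild type, with 91.3 and 65.7 in the knockout arrays, and was at least 9.22-fold. The largest fall among them above background on both arrays, singled out after its values were seen, read 55.1 in the enhancer trap and 1355 in wild type, with 1585 and 1531 in the knockout arrays. At 24.6-fold it exceeded the fall of ZW9.

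The positions of the called genes, which the size rule did not use, were uneven. Chromosome 4 had 59 called among 1935 genes compared (3.05%), 21 higher and 38 lower. The other chromosomes ranged from 1.18% on chromosome 3 to 2.20% on chromosome 1. The knockout pair gave 0.982% on chromosome 4 and 0.515% to 0.692% on the others, so its share was also highest there. Of the 12 largest falls 7 were on chromosome 4, which held 1935 of the 13355 genes compared and 38 of the 150 called lower.

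Some called genes also lay near each other. Of 237 called genes with a known position and a signal above background, 55 (23.2%) stood within 3 measured genes of another call. Among genes called between the knockout arrays it was 0 of 61, a smaller set that is less dense along the chromosomes. The share expected from the density of calls alone was not computed for either set, so these shares cannot be compared directly. There were 7 runs of at least 3 calls, holding 23 genes. On chromosome 4 the adjacent measured genes AT4G19500, AT4G19510, AT4G19520 and AT4G19530 all fell, the first 3 into background by at least 7.65-, 3.10- and 2.67-fold. AT4G19530 stayed above background, at 58.3 in the enhancer trap and 456 in wild type, with 478 and 566 in the knockout arrays, a 7.83-fold difference.

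AT4G16870, AT4G16880 and AT4G16920 fell into background, by at least 11.5-, 5.84- and 1.29-fold, beside AT4G16840, which was 2.29-fold higher. AT4G15660 (at least 7.11-fold), AT4G15690 (3.99-fold) and AT4G15700 (2.21-fold) also fell. On chromosome 1, AT1G48670 (at least 2.41-fold), AT1G48750 (2.89-fold) and AT1G48800 (at least 4.46-fold) all rose. The other 3 runs held rises and falls side by side, as in AT1G62500 and AT1G62510, which were 2.27- and 2.29-fold lower, next to AT1G62520, which was at least 2.76-fold higher. Neighbouring genes of 1 family can share signal between probe sets, and this was not tested.

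The knockout arrays, which are of another line, were set beside each difference. Of the 209 probe sets called higher, 85 (40.7%) were also at least 2-fold higher in the enhancer trap than in each knockout array, and so were 187 of the 293 called lower (63.8%) in the downward direction. Among calls above background the knockout mean was nearer to wild type than to the enhancer trap for 162 of 202 rises and 241 of 271 falls. Both knockout arrays were 2-fold from wild type in the same direction as the enhancer trap for 13 rises and 14 falls, QQS among the falls. All these counts reuse the enhancer-trap array and are a description, not independent support.

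Other gene lists with at least 3 members matched by name gave few calls or none. Genes known by locus alone, called ones included, may belong to these families but are not counted here. The counts were 0 among 14 glutathione transferase genes (median 0.11), 24 cytochrome P450 genes (median -0.05), 13 glutaredoxin and thioredoxin genes (median -0.09), 37 glycoside hydrolase genes (median 0.01) and 7 WRKY factor genes (median -0.19). Among 8 helix-loop-helix genes other than CES 0 were called. HAT2, a homeobox gene induced by auxin, was just under 2-fold, at 168 in the enhancer trap and 325 in wild type, with 403 and 361 in the knockout arrays. The 4 reference genes had a median of 0.17 and 0 calls. With 1 array a side, a group without calls may still have changed, by less than 2-fold or, for dim genes, by more but within the noise limit. The glutathione transferase gene GSTU15, for example, had a change of 2.58 under a limit of 3.28, close to background.

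**Figure D4:**
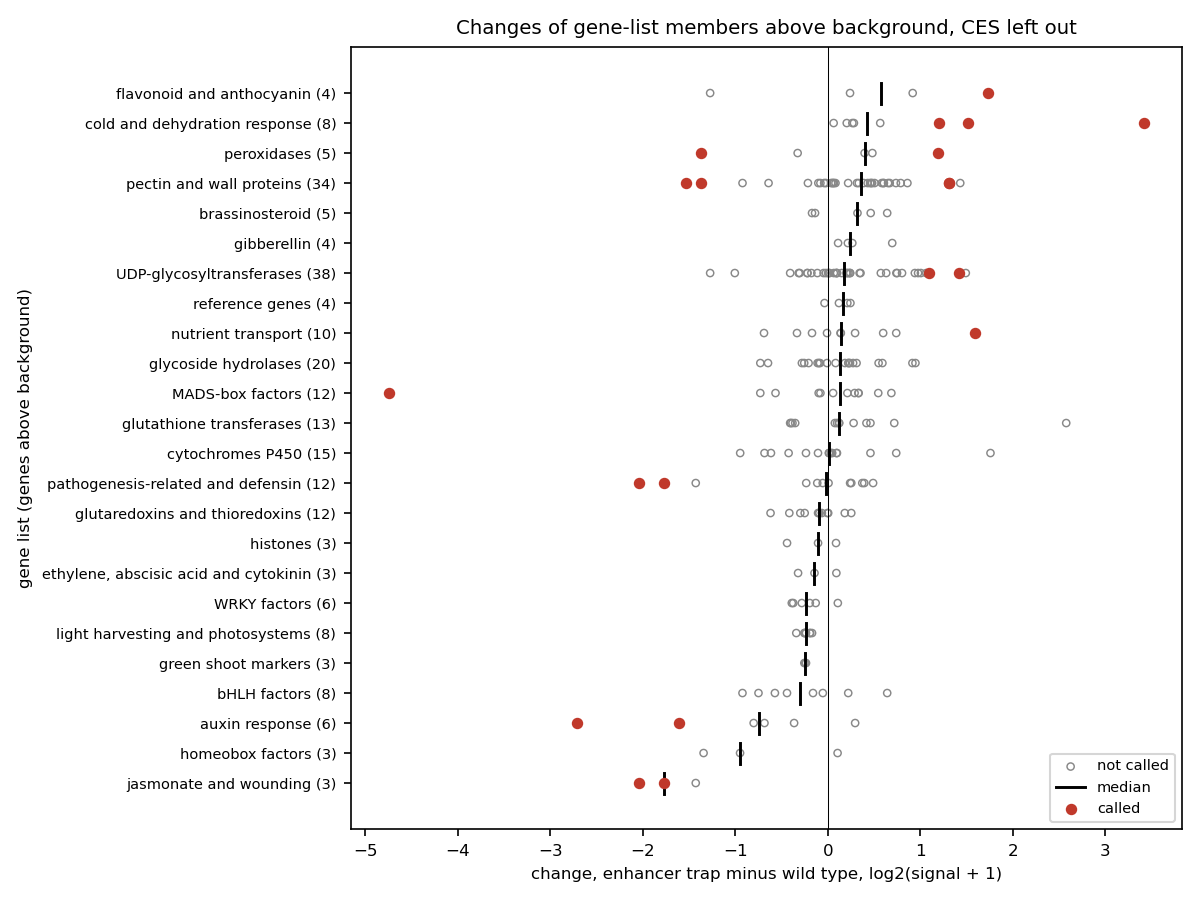
Change in log2(signal + 1), enhancer trap minus wild type, of the members above background of each gene list with at least 3 measured genes, with CES left out. Each circle is a gene, filled where called, the bar is the median, and the number in brackets counts the genes drawn. The cold list has 3 filled points to the right and the auxin list 2 to the left, while the photosynthesis genes form a narrow group left of 0.

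Markers of tissue and RNA quality were read on the same arrays. All 8 measured genes of the light-harvesting and photosystem list were slightly lower in the enhancer trap in the deposited scaling, by 0.17 to 0.34 on the log2 scale with 0 called, and their summed signal was 30502 in the enhancer trap, 35632 in wild type and 34345 and 36848 in the knockout arrays. The 3 green shoot markers RCA, LHCB4.1 and LHCB4.2 summed to 15948 in the enhancer trap and 18887 in wild type, against 17895 and 18915 in the knockout arrays. The root markers measured were PYK10, at 4112 in the enhancer trap and 3525 in wild type, and EXPA7. Together they summed to 4225 in the enhancer trap and 3570 in wild type, against 3368 and 3681 in the knockout arrays. With quantile normalization the median change shrank to -0.06 for the light-harvesting and photosystem list and -0.02 for the green shoot markers, RCA was at 0.00, and PYK10 was at 0.39. The size of the shoot difference thus depends on the scaling, and the part of shoot and root markers in the falls of SECE1 and PGRL1B and in the rises of EXPA7 and LPR1 was not tested. In RNA of whole plants fewer cells of a type and less RNA per cell cannot be told apart.

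The pollen marker AGL104 was within background in the enhancer trap and wild type. The 3'/5' signal ratio of GAPDH, read as a guide to how intact the RNA was, stood at 1.38 in the enhancer trap and 1.70 in wild type, against 1.86 and 2.01 in the knockout arrays, and that of actin was 2.55 in the enhancer trap and 2.49 in wild type. Median signals were 39.0 in the enhancer trap and 39.6 in wild type, and 38.5 and 38.9 in the knockout arrays. The number of arrays limits every value, since what belongs to the line and what belongs to either lone array cannot be told apart.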

How the data were processed

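The deposited values are signal intensities on a linear scale, 1 for each probe set. The submitters' processing notes name MAS5 and GCOS, the Affymetrix software, as the authors' tools. Their versions, and detection calls, are not given in the sources used here. The mean of every column is 100 once 2% of values is trimmed at each end, which shows that arrays were scaled before deposit. No further normalization was applied. MAS5 signals vary more where they are low.

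The 64 control probe sets were left out. Changes are differences in log2(signal + 1), which understate those of dim genes. The noise limit came from 20 bins of equal number by mean signal. A bound is the brighter signal over 10.6. Folds are ratios of signals. Nothing in the labels tells if both knockout arrays are of separate plantings, so their spread may be technical.

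Of 22746 probe sets, 13513 carry 1 gene in the platform annotation, 503 several and 8730 are not listed there. The 1-gene entries were updated through the gene table of assembly TAIR10.1 (13436 matched), used for names, gene type and gene order. Where several probe sets report 1 gene, the brightest on average was used. Named genes were CES, the 12 largest called rises and falls, up to 3 called members per list, the brightest markers, and up to 2 unlisted probe sets each way. The other called genes with a symbol, the genes in runs, the genes of largest signal difference, the CES neighbours and uncalled list members were chosen after their values were seen.

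The comparison, members and lists were chosen with earlier results of these data known. The 43 lists were defined by patterns matched to symbols, synonyms or locus names, because no gene descriptions were available. Patterns that caught unrelated names were corrected after membership was seen. In 12 lists no gene was matched, and 7 had 1 or 2. An empty list does not mean that the array measures no such gene. Where genes lay in gene order, runs joined calls at most 3 measured genes apart.

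Limma (3.58.1, R 4.3.3) entered only as an alternative, with 1 residual degree of freedom (the knockout pair) and Benjamini-Hochberg adjustment at 0.05. Other alternatives changed the pseudocount, scaling, fold, noise limit, bins and filter. The size rule was tested on simulated data. Promoter motifs were not analysed here. Computation used Python 3.11.15, numpy 2.4.6, pandas 2.3.3 and matplotlib 3.10.9.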

Additional observations from a re-analysis of the deposited data

How the results depend on the processing

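Of 502 calls (209 higher, 293 lower, 272 also 2-fold from both knockout arrays), counts moved by over 1.5 times under 6 settings. With log2(signal + 16) they were 260, 97, 163 and 152, and 50 for the knockout pair. With a 3-fold requirement they were 218, 74, 144 and 166. With a noise limit at the 95th percentile they were 860, 340 and 520, and the knockout pair gave 469, a total largely set by its own limit. With no noise limit they were 3079, 1279, 1800 and 882, and the knockout pair gave 2743. Limma at an adjusted p under 0.05 called 153 over all probe sets (42 higher, 111 lower, 121 beyond both knockout arrays) and 205 above the 40th percentile of signal without an intensity trend (62, 143 and 155), with 27.5% and 30.2% higher against 41.6% as reported. With the trend it called 586, of which 336 were shared. Limma assumes that the lone arrays vary as the knockout arrays do.

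Quantile normalization (504), median centring (520), other bins (502 and 537), the signal filter (372) and leaving out calls within background, chosen after seeing the data (473), stayed within 1.5 times. All 40 called named genes kept their direction under the 3 scalings. This was fixed in advance for log2(signal + 16), which cannot change a sign, and nearly so for median centring, which shifts all changes alike. Sizes shrank with log2(signal + 16), from 3.34 to 0.89 for AT5G39520, from 3.01 to 0.61 for AT1G34330 and from 1.20 to 1.17 for LTI30. With quantile normalization 23 of 24 list medians kept their sign. No paired analysis was possible because the groups compared share 1 replicate number, with 1 array each. Leaving out a knockout array was not possible, since the noise limit needs both. The promoter motif search was not run. Dim probe sets limit the result, since changes up to 9.74-fold lie within the noise limit in the bin with the widest spread.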
